A study of Mus musculus with 2 samples.

Results

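The G1 phase machinery was followed by 9 genes in PK44 cells of the E10.0 mouse yolk sac: the D cyclins *Ccnd1*, *Ccnd2* and *Ccnd3*, the kinases *Cdk4* and *Cdk6*, the Cip/Kip inhibitors *Cdkn1a*, *Cdkn1b* and *Cdkn1c*, and the kinase substrate *Rb1*. They were chosen by name, and all 9 had a row among the 23154 genes of both count tables. PK44 cells are hemogenic endothelial cells, vessel wall cells that can give rise to blood, sorted by surface proteins as CD41-CD43-CD45-CD31+CD201+Kit+CD44+. Modified STRT-seq, a well-based single-cell method that tags the 3′ end of each transcript with a molecular barcode (UMI), gave 2 libraries, replicate 1 of 43 cells and replicate 2 of 44, which makes 87 in all. Both libraries were of this 1 condition, from embryos on a C57BL/6 background, with no treated or mutant group. The labels do not say whether the libraries came from separate embryos, so that the spread between them may be technical.

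The D cyclins bind Cdk4 or Cdk6 when growth signals reach a cell in G1. The active kinases phosphorylate the retinoblastoma protein, which then releases E2F factors, and genes of DNA replication are switched on. Proteins of the Cip/Kip family restrain cyclin-Cdk complexes and hold cells in G1 or out of the cycle. In arterial endothelium, Notch signalling through the connexin Gja4 is known to raise Cdkn1b and to hold cells in G1. The 9 genes were therefore set beside *Mki67*, a proliferation marker, *Runx1*, the transcription factor needed for the endothelial-to-hematopoietic transition, and *Gja5*, which encodes the arterial gap junction protein connexin 40.

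Depth differed between the libraries. Replicate 1 had 8932527 counts and replicate 2 had 12706360, with medians per cell of 141577 and 238898.5 counts. Cells ranged from 13218 to 702028 counts in replicate 1 and from 51620 to 956593 in replicate 2. The libraries shared 0 cell names. All 8 endothelial markers had counts in both libraries, with summed levels of 2436 and 4002 CPM (counts scaled to the same total, 1e+06, in each library or cell). The 7 mesenchyme markers summed to 845 and 333 CPM, and 3 cells (2 of replicate 1 and 1 of replicate 2) had 100 or more counts of each of *Col1a1*, *Col1a2*, *Col3a1* and *Lum*. Of the 5 macrophage markers only *Csf1r* had a count in either library, at 5.60 and 0.551 CPM. The 6 erythroid markers summed to 13.3 and 18.7 CPM, and the 7 visceral endoderm markers to 58.1 and 77.5 CPM, mostly of *Trf*. No sorted cell type that should lack the 9 genes was at hand to set a background for single counts.

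Sequence before the start site is shown for the kinases, which were at the top and the bottom of the order of levels, and for *Cdkn1a*, whose counts were the most concentrated in few cells among the inhibitors. RefSeq promoter windows of GRCm38.p6 matched 5 of the 9 genes with 7 windows, each of 300 bases (*Cdk4*, *Cdk6*, *Cdkn1a*, *Cdkn1b* and *Ccnd3*). The first 250 bases of 3 windows, all on the + strand, are printed 5′ to 3′: chr10:127063285-127063534 for *Cdk4*, chr5:3343643-3343892 for *Cdk6* and chr17:29090729-29090978 for *Cdkn1a*. Capitals mark CACGTG, the E-box read by Myc and related factors, in the sequences of the kinases. In that of *Cdkn1a* they mark ACATGT, a string that occurs within p53 binding sites. Both motifs read the same on both strands.
Cdk4: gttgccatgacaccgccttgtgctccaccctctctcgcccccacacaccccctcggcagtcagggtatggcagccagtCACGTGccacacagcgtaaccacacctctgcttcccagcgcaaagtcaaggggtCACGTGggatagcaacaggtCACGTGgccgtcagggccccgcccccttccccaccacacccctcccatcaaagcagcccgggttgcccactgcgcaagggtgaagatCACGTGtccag
Cdk6: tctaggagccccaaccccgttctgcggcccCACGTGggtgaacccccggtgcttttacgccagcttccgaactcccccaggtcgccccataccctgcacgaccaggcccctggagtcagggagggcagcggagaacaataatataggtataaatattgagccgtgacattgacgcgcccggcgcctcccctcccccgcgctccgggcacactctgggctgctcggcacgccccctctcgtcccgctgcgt
Cdkn1a: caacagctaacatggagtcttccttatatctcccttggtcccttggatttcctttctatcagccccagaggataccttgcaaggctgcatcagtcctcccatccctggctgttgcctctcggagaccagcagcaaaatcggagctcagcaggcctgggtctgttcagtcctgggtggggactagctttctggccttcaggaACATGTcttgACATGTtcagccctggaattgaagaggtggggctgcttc
The *Cdk4* window held 4 copies of CACGTG, a number reached by 0.0244% of 32851 windows of this length. *Cdk6* had 1 copy, and 7.15% of all windows had at least 1. In *Cdkn1a* ACATGT occurred at 2 places, from bases 202 and 212 of the window, which need not be separate p53 sites. Of all windows, 0.329% held at least 2 copies. The 4 other windows, including the second one of *Cdkn1a*, held neither motif. These are matches of letters and no evidence of binding in PK44 cells.

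*Cdk4* was the most abundant of the 9 genes and *Cdk6* the least. Levels are CPM of the summed counts of a library. Since a count is meant to stand for 1 tagged 3′ end, they were not divided by gene length. *Cdk4* (chr10:127063534-127067920, + strand, GRCm38) stood at 421 and 486 CPM in replicates 1 and 2, a mean of 454 ± 46.4 (SD, n = 2 libraries). It had counts in 40 of 43 and 44 of 44 cells, and 73 of the 87 cells had 10 or more. The CPM per cell ran from 0 over a median of 319 to 2036 in replicate 1, and from 63.4 over 427 to 1075 in replicate 2. It overlaps the antisense gene *Tspan31*, which also has a row, and whether reads were counted by strand is not given in the sources used here. *Cdk6* (chr5:3341485-3531008, + strand), the partner kinase with a known role in blood progenitors, had no count in replicate 1, and 0 of 43 cells allows a share of up to 6.98% of cells with a count by the limit of 3 cells, and of 8.22% by the exact 95% interval. In replicate 2 it had 58 counts, 4.56 CPM, in 8 of 44 cells (18.2%, exact 95% interval 8.19 to 32.7). Of these cells 3 held 24, 17 and 11 counts and the other cells 1 or 2. The level of replicate 2 was 13.6-fold the limit of 3 counts in replicate 1. That limit takes counts as independent, while most counts of replicate 2 lay in 3 cells. By share of cells, the exact intervals of the libraries touched (up to 8.22% and from 8.19%). Thinned to 10000 counts a cell, 2 cells of replicate 2 kept a count of *Cdk6*.

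The D cyclins together made up 498 and 508 CPM, nearly the same in both libraries, while their shares differed. *Ccnd2* (chr6:127125162-127152193, - strand) led with 362 and 226 CPM, a mean of 294 ± 96.3 (SD, n = 2), and counts in 72 of 87 cells. *Ccnd1* (chr7:144929931-144939925, - strand), the D cyclin best known as a target of mitogen signals, had 93.1 and 176 CPM, a mean of 134 ± 58.4 (SD, n = 2), with counts in 64 cells. *Ccnd3* (chr17:47505051-47599691, + strand) was at 43.3 and 107 CPM, a mean of 75.0 ± 44.8 (SD, n = 2). *Ccnd1* and *Ccnd3* were the higher ones in replicate 2 and *Ccnd2* was the higher one in replicate 1. The count of cells separated the libraries most for *Ccnd3*, with 12 of 43 cells (27.9%, exact 95% interval 15.3 to 43.7) against 39 of 44 (88.6%, 75.4 to 96.2). With each cell thinned to 10000 counts the same gene was found in 7 and 25 cells, so the gap was also present at matched depth. Its 2.46-fold ratio between replicates was larger, in either direction, than the ratio of 90.2% of the 7668 genes with 100 or more counts in each library. The ratio of *Ccnd1* was 1.89-fold and exceeded that of 77.3% of genes. Antisense genes with rows overlap *Ccnd2* (*9330179D12Rik*) and *Ccnd3* (*Bysl*), and their reads cannot be told apart without strand.

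The leading D cyclin differed between cells. Among cells with 10 or more counts of the family, *Ccnd2* was the largest in 20 of 28 (replicate 1) and in 20 of 42 (replicate 2). *Ccnd1* led in 7 and 13 of these cells, and *Ccnd3* in 1 and 9. One gene held over 90% of the family's counts in 13 of these 28 and 14 of these 42 cells. Exactly 2 of the genes reached 10 counts in 10 and 15 cells. All 3 genes reached 10 counts in 3 cells of replicate 1 and 13 cells of replicate 2. *Ccnd1* and *Ccnd2* were both at 10 or more counts in 9 and 17 cells. In replicate 1, 6 cells had no count of any D cyclin, and in replicate 2 no cell did.

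**Figure D1:**
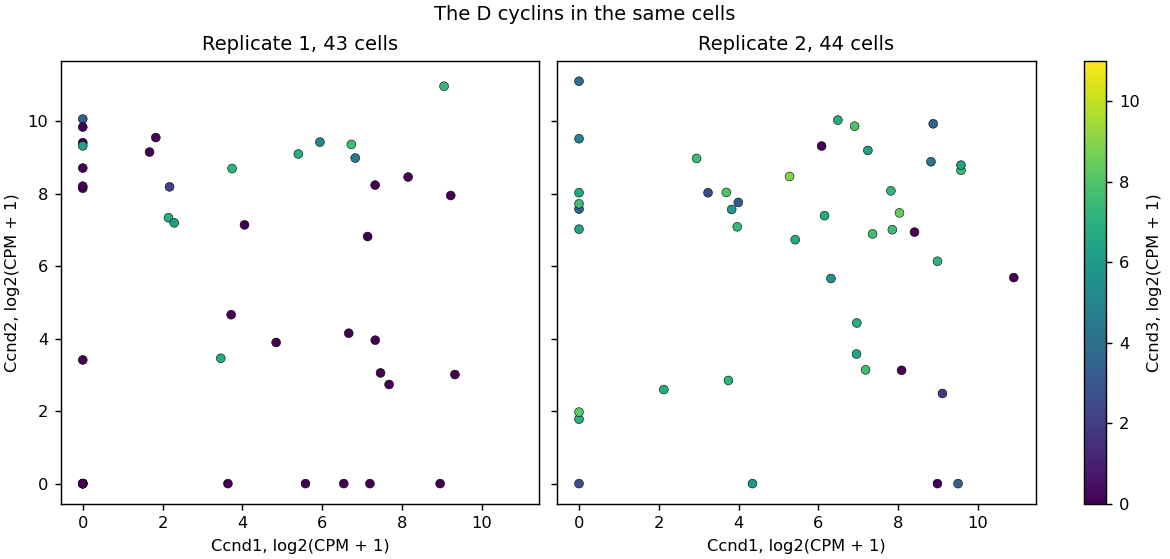
Each point is a cell, with *Ccnd1* on the x axis, *Ccnd2* on the y axis and *Ccnd3* as colour, all in log2(CPM + 1), for replicate 1 (left, 43 cells) and replicate 2 (right, 44 cells). Points fill both axes and the middle, and darkest points, without *Ccnd3*, are the majority on the left, where 12 of 43 cells had a count, and the minority on the right, where 39 of 44 did.

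*Cdkn1c* was the leading inhibitor. It encodes p57Kip2, is imprinted and is known to keep blood stem cells quiescent. Its level (chr7:143458339-143461050, - strand) was 166 and 203 CPM, a mean of 185 ± 26.8 (SD, n = 2), with counts in 79 of 87 cells. *Cdkn1a* (chr17:29090976-29100727, + strand), the p53 target that encodes p21Cip1, had 72.3 and 84.1 CPM, a mean of 78.2 ± 8.30 (SD, n = 2). *Cdkn1b* (chr6:134920401-134925513, + strand), which encodes p27Kip1, had 63.4 and 43.8 CPM, a mean of 53.6 ± 13.8 (SD, n = 2). *Cdkn1c* was the largest of the 3, among cells with 10 or more counts of the family, in 19 of 29 (replicate 1) and 27 of 35 (replicate 2). *Cdkn1a* and *Cdkn1b* were both at 10 or more counts in 0 cells of replicate 1 and 1 cell of replicate 2. The family summed to 301 and 331 CPM.

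Means of *Cdkn1a* rested on few cells. Of its counts, 75.7% and 80.1% lay in the 3 cells that held most of them. For *Cdk4* the same share was 24.9% and 21.9%, for *Cdkn1c* 37.3% and 37.8%, and for *Cdkn1b* 70.3% and 55.7%. A count of *Cdkn1a* was found in 52 of 87 cells, but 10 or more counts in only 6 and 10 cells. The highest cells reached 777 CPM in replicate 1 and 1968 CPM in replicate 2, against medians of 7.04 and 0.984 CPM. *Rb1* (chr14:73183673-73325822, - strand), the substrate that the kinases inactivate, was at 13.5 and 21.0 CPM, a mean of 17.3 ± 5.28 (SD, n = 2), with counts in 32 of 87 cells. The genes *Lpar6* and *Rcbtb2*, on the other strand, overlap it and have rows of their own.

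Ordered by mean level, the genes ran *Cdk4*, *Ccnd2*, *Cdkn1c*, *Ccnd1*, *Cdkn1a*, *Ccnd3*, *Cdkn1b*, *Rb1* and *Cdk6*. The ranges of the 2 libraries overlapped for 3 neighbouring pairs, *Cdkn1c* with *Ccnd1*, *Cdkn1a* with *Ccnd3*, and *Ccnd3* with *Cdkn1b*. The order of the last 2 of these pairs differed between libraries. All other neighbours kept their order in both libraries with ranges apart.

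**Figure D2:**
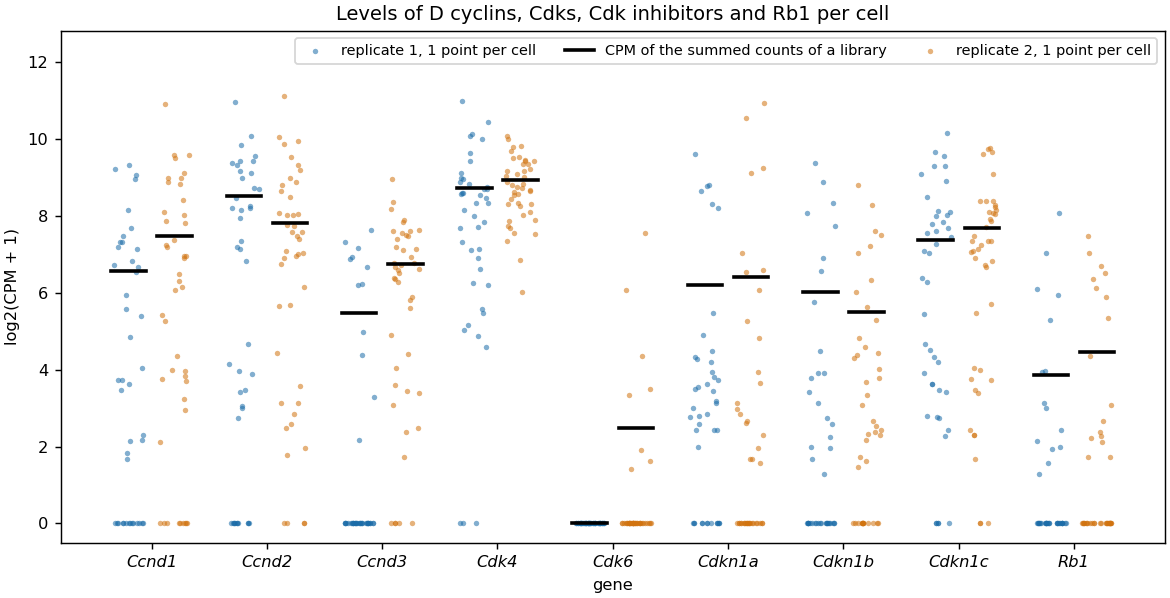
The 9 genes stand along the x axis and log2(CPM + 1) along the y axis, with 1 point per cell, blue for replicate 1 and orange for replicate 2, and a black line at the level of the library's summed counts. *Cdk4* is high in nearly all cells, *Cdk6* is at 0 in all 43 cells of replicate 1, and the lines of *Cdkn1a* (72.3 and 84.1 CPM) lie far above most of its points.

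Across cells the 9 genes showed little shared variation. Spearman's rho of CPM was taken within each library, and cells of a library share its preparation and differ in depth. The 28 pairs of the 8 genes found in both libraries had a median rho of 0.10 in replicate 1 and 0.01 in replicate 2. Over all pairs of 3661 genes with a count in at least 50% of the cells of each library, the medians were 0.08 and 0.03. *Ccnd3*, *Cdkn1b* and *Rb1* did not meet this rule, so the 28 pairs include genes found in fewer cells. The sign was the same in both libraries for 15 of the 28 pairs, 53.6%, against 54.7% of all pairs. No pair passed 0.2, or fell under -0.2, in both libraries. *Ccnd1* with *Cdkn1a* came nearest, at 0.40 and 0.19 (0.54 and 0.22 in thinned cells). *Ccnd2* with *Ccnd3* had 0.51 in replicate 1 and 0.11 in replicate 2, and *Ccnd1* with *Cdk4* had 0.01 and -0.41. Such values over 43 and 44 cells describe these libraries and are not tests.

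**Figure D3:**
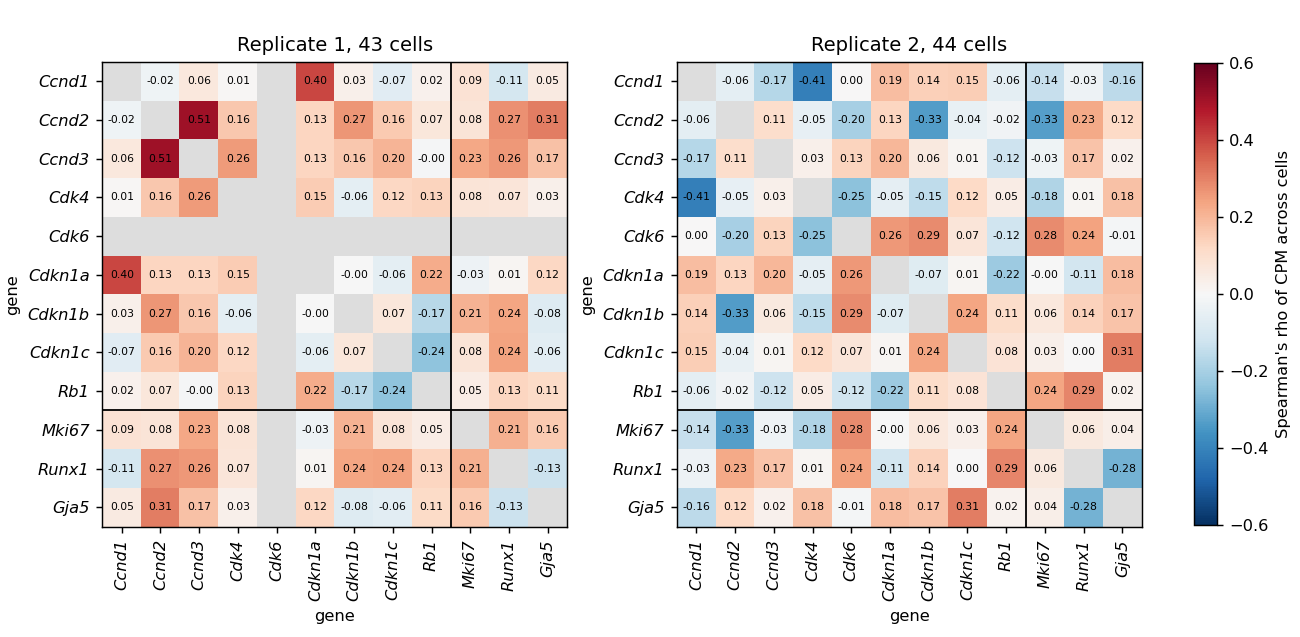
Both panels show Spearman's rho of CPM across cells for each pair of the 9 genes and of *Mki67*, *Runx1* and *Gja5*, red for positive and blue for negative, replicate 1 on the left and replicate 2 on the right, with grey where no value exists (*Cdk6* had no count in replicate 1). The strongest squares on one side, such as *Ccnd2* with *Ccnd3* at 0.51, are pale on the other, at 0.11.

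Relations to the cell cycle were clearest for *Ccnd3* and *Cdk4*, with the S phase genes. Against the mean log2(CPM + 1) of 20 S phase genes, *Ccnd3* had a rho of 0.59 and 0.43 and *Cdk4* one of 0.37 and 0.25. The median over the 3661 genes was 0.23 and 0.10. In thinned cells the values were 0.38 and 0.30 for *Ccnd3* and 0.23 and 0.11 for *Cdk4*, and no median over all genes was taken there. *Ccnd3* had a count in only 12 of 43 cells of replicate 1, so it is not among the 3661 genes. CPM of *Ccnd3* also moved with the total counts of a cell, at 0.44 and 0.18, and that of *Cdk4* at 0.34 and 0.22, beside medians of 0.24 and 0.11. Toward 19 G2M genes *Cdkn1b* had 0.35 and 0.12 (-0.004 and 0.24 in thinned cells), beside medians of 0.17 and 0.05. *Ccnd2* had 0.08 in replicate 1 and -0.52 in replicate 2. With *Mki67* itself it had 0.08 and -0.33. For *Runx1* the D cyclin values were 0.27 and 0.23 (*Ccnd2*), 0.26 and 0.17 (*Ccnd3*) and -0.11 and -0.03 (*Ccnd1*), with medians of 0.12 and 0.11 over the 3661 genes. For *Gja5* they were 0.31 and 0.12 (*Ccnd2*), 0.17 and 0.02 (*Ccnd3*) and 0.05 and -0.16 (*Ccnd1*). In thinned cells *Ccnd1* had -0.25 and -0.20 with *Runx1*, and *Ccnd3* had -0.05 and -0.14 with *Gja5*. *Rb1* had 0.13 and 0.29 with *Runx1*, but 0.09 and -0.14 in thinned cells.

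Cells with 10 or more counts of *Cdkn1b* had the higher median of *Mki67* in both libraries, as had those of *Ccnd3*, *Cdk4* (against 1 other cell in replicate 2) and *Cdkn1c*. For *Cdkn1b* the median *Mki67* level was 1015 CPM in 7 cells against 276 CPM in the other 36 of replicate 1, and 502 CPM in 9 cells against 39.8 CPM in the other 35 of replicate 2. These cells were also deeper, with medians of 301362 against 133254.5 counts and 365258 against 220901 counts. The rho of *Cdkn1b* with *Mki67* was 0.21 and 0.06, and in thinned cells -0.017 and 0.08. The summed level ran the other way, with 87.8 CPM of *Cdkn1b* in *Mki67* low and 45.7 CPM in high cells of replicate 1, and 46.2 and 42.3 CPM in replicate 2. For *Cdkn1a* the order of the same medians turned between libraries, 83.3 against 410 CPM in replicate 1 and 322 against 150 CPM in replicate 2.

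For 5 of the genes, those with counts in at least 50% of the cells of each library, the most alike genes were sought among 3660 by the mean rho of the libraries. The leading ones were *Pcdh17* (0.49) and *Zfp36l1* (0.39) for *Ccnd1*, *Rars* (0.48) and *Gsk3b* (0.43) for *Ccnd2*, *Jade1* (0.42) and *Rpa2* (0.41) for *Cdk4*, *Ice1* (0.40) and *Map4k1* (0.38) for *Cdkn1a*, and *Cbfa2t3* (0.45) and *H3f3a* (0.36) for *Cdkn1c*. Each is among the highest of 3660 values and is given as a description.

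To test relations over libraries and not over cells, the cells of each library were divided at the library's median CPM of *Mki67*, *Runx1* or *Gja5*. Counts were summed for the cells above the median (called high) and for the rest (low), which gave 4 sums for each dividing gene. High and low were compared by edgeR's quasi-likelihood test with the library as a block and Benjamini-Hochberg adjustment over all genes tested. Few genes were called at 0.05 for *Mki67*: 4 (0.0376%) were higher and 1 (0.00939%) lower in the high cells, of 10650 tested. For *Runx1*, 40 (0.376%) were higher and 126 (1.19%) lower of 10629. For *Gja5*, 85 (0.798%) were higher and 9 (0.0845%) lower of 10653.

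None of the 9 genes was called in any of the 3 comparisons. Called were 0 of 9 for *Mki67*, 0 of 8 for *Runx1* and 0 of 8 for *Gja5*, where *Cdk6* did not pass the filter on low counts. At an unadjusted p under 0.05, edgeR's test had 2, 1 and 1 of them, beside 4.3%, 8.7% and 7.7% of all genes tested. DESeq2 and edgeR without the block also called 0 of the 9 genes. Of these 9 genes, *Cdkn1a* had the log2 fold change of largest absolute size in each of the 3 comparisons.

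*Cdkn1a* had the lower summed level in *Mki67*-high cells of both libraries, without passing the test. Its level was 108 CPM in the low and 46.5 CPM in the high cells of replicate 1, and 155 and 38.3 CPM in those of replicate 2. High and low sums did not overlap, as for *Ccnd2* and *Cdkn1b*. With 2 sums on each side this is weak, and the share over all genes was not counted. The log2 fold change of high over low was -1.65 (SE 0.54), with an adjusted p of 0.692 in edgeR. Of the 5 cells with the highest CPM, 4 in replicate 1 and 3 in replicate 2 were low cells. In the median cell the order was not the same in both libraries, with 8.25 CPM in low and 7.04 in high cells of replicate 1, and 0 and 2.20 CPM in replicate 2. Cells with 10 or more counts were 5 of 22 low and 1 of 21 high cells in replicate 1. In replicate 2 they were 4 of 22 low and 6 of 22 high cells. Across single cells the rho with *Mki67* was -0.03 and -0.003. When the 14 cells of each library with most *Mki67* were set against the 14 with least, *Cdkn1a* fell by 3.63 on the log2 scale and was called (adjusted p 0.0354 in edgeR). With cells divided by a score of the G2M genes, the log2 fold change was -1.20 and was not called.

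*Ccnd2* had 379 CPM in low and 350 CPM in high cells of replicate 1, and 384 and 123 CPM in those of replicate 2. Most of the difference came from replicate 2. Its log2 fold change was -0.91 (SE 0.33), adjusted p 0.899 in edgeR, with -0.14 in replicate 1 alone and -1.68 in replicate 2 alone. All 9 genes had a negative log2 fold change in this comparison, with a median of -0.56, while 48.3% of all genes tested were negative and their median was 0.03. This common sign was not kept when cells were thinned (4 of 7 negative) or divided within *Runx1*-high and *Runx1*-low cells (4 of 9). *Rb1* had opposite signs in the 2 libraries, -1.35 and 1.32. *Cdk4* was at 421 and 420 CPM in replicate 1 and 507 and 473 CPM in replicate 2 for low and high cells.

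High cells of the *Mki67* comparison were deeper than low cells, with medians of 245523 against 90600 counts (replicate 1) and 264753.5 against 207920 (replicate 2). In cells thinned to 10000 counts and divided anew, the log2 fold change of *Cdkn1a* was -2.09 (adjusted p 0.184 in edgeR) and that of *Ccnd2* -0.66 (0.805). Summed mesenchyme markers were 615 CPM in high and 1163 CPM in low cells of replicate 1, and 530 and 30.8 CPM in replicate 2. Without the 3 cells rich in these markers the values were -1.66 for *Cdkn1a* and -0.93 for *Ccnd2*.

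Other genes of the cycle were followed by list. Of 19 G2M genes, 2 rose in *Mki67*-high cells, *Top2a* (log2 fold change 1.83, adjusted p 5.10e-05 in edgeR) and *Cenpe* (2.15, adjusted p 0.00981), which act on DNA topology and chromosome movement. The list's median was 1.65, and all 19 were positive. Of 26 other G1/S genes tested (E-type cyclins, E2f factors, Ink4 inhibitors and the like) 0 were called, with a median of 0.28, and 2 had an unadjusted p under 0.05. Of 20 S phase genes 0 were called (median 0.39, 2 with an unadjusted p under 0.05). Of 14 other p53 targets 0 were called, with a median of -0.35 and 0 with an unadjusted p under 0.05. Among all genes tested by *Mki67*, 4.3% had such a p.

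In the *Runx1* comparison *Ccnd2* was higher in high cells, without a call. Low and high cells had 187 and 458 CPM in replicate 1 and 211 and 236 CPM in replicate 2. The sums did not overlap, as for *Cdkn1c* and *Rb1*. With 2 sums on each side this is weak here too. The share of all genes without overlap was not counted, so this does not set these genes apart. For *Ccnd2* the gap was wide in replicate 1 and narrow in replicate 2. The log2 fold change was 0.69 (SE 0.38), adjusted p 0.648 in edgeR. *Ccnd3* had 17.0 and 57.8 CPM in replicate 1 and 105 and 108 CPM in replicate 2, with a log2 fold change of 0.85 (SE 0.71). *Ccnd1* had 147 and 63.5 CPM in replicate 1 and 207 and 155 CPM in replicate 2, a log2 fold change of -0.84 (SE 0.48), adjusted p 0.676 in edgeR. The D cyclins thus pointed in different directions, none of them called.

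*Cdkn1a* and *Cdkn1b* went opposite ways in the libraries. For *Cdkn1a*, low and *Runx1*-high cells had 49.8 and 84.7 CPM in replicate 1, but 190 and 12.9 CPM in replicate 2. The log2 fold change was -1.58 (SE 0.80), adjusted p 0.570 in edgeR, made of 0.71 in replicate 1 alone and -3.88 in replicate 2 alone. It was called with the 14 cells of each library with most *Runx1* against the 14 with least (-3.25, adjusted p 0.0359 in edgeR) and when cells were divided within *Mki67*-high and *Mki67*-low cells (-2.95, adjusted p 0.0263). The 3 highest cells of replicate 2, with 1968, 1494 and 605 CPM of *Cdkn1a*, had no count of *Runx1*. They had 470, 452 and 725 CPM of *Ccnd1*. The 3 highest cells of replicate 1, with 777, 445 and 438 CPM of *Cdkn1a*, had 64.4, 0 and 0 CPM of *Runx1*. Their *Ccnd1* levels were 60.6, 643 and 92.3 CPM. Of the 5 cells with most *Cdkn1a*, 3 were *Runx1*-high in replicate 1 and 1 in replicate 2. For *Cdkn1b* the 4 levels were 10.1 and 92.7 CPM in replicate 1 and 60.7 and 32.5 CPM in replicate 2. *Cdkn1c* was lower in high cells, at 175 and 160 CPM in replicate 1 and 253 and 170 CPM in replicate 2, a log2 fold change of -0.38 (SE 0.42).

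The same division called genes of other lists. Of 7 hematopoietic feature genes 3 rose, *Adgrg1*, *Neurl3* and *Bcl11a* (log2 fold changes 2.25, 2.13 and 1.91), and of 9 arterial genes 6 fell, led by *Gja4* (-2.45) and *Dll4* (-2.71). Of 8 endothelial markers 3 fell (*Kdr*, *Cdh5* and *Tek*). Of the 6 mesenchyme markers tested 4 fell, *Col1a2*, *Col1a1*, *Col3a1* and *Lum*, whose summed list stood at 52.95 CPM in high and 2282 CPM in low cells of replicate 1, and at 23.4 and 795 CPM in replicate 2. Without the 3 cells rich in them, *Ccnd2* had a log2 fold change of 0.46 and *Cdkn1a* one of -1.62. Of the 26 other G1/S genes 0 were called (median 0.12, 1 with an unadjusted p under 0.05), and of 14 p53 targets 0 (median -0.42, 1 with such a p). Among all genes tested by *Runx1*, 8.7% had such a p. Medians of depth were 260240 counts in high and 95376 in low cells of replicate 1, and 271733.5 and 213444 in replicate 2.

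The largest difference of any of the 9 genes was that of *Cdkn1a* by *Gja5*. Low and high cells had 128 and 17.2 CPM in replicate 1 and 122 and 44.8 CPM in replicate 2. Both low sums were above both high sums, which is again weak with 2 on each side. The log2 fold change was -2.17 (SE 0.60), with an adjusted p of 0.0915 in edgeR and 0.0572 in DESeq2. It passed without a filter on low counts (adjusted p 0.0237 in edgeR), but in thinned cells it was -0.78 (adjusted p 0.921), between the 14 cells with most and the 14 with least *Gja5* of each library -0.85 (adjusted p 1.00 in edgeR), and by the score of 9 arterial genes 0.27. Low cells held 3 of the 5 highest cells in each library, and 88.1% and 73.9% of the gene's counts. Across single cells the rho with *Gja5* was weakly positive, 0.12 and 0.18. Depth differed less here, with medians of 161402 and 140016.5 counts in high and low cells of replicate 1 and 230499 and 246822 in replicate 2.

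**Figure D4:**
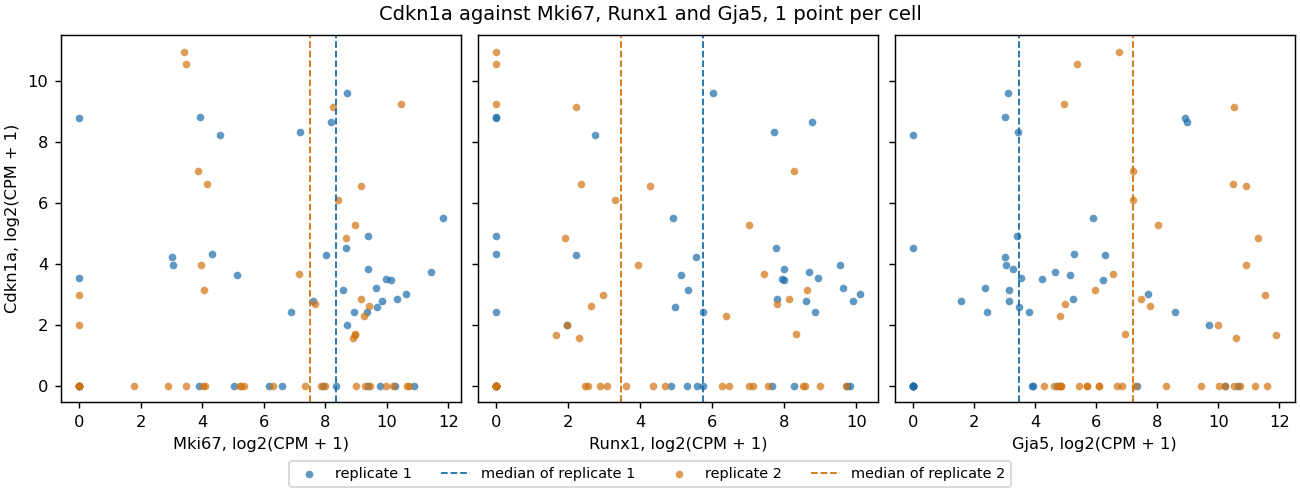
*Cdkn1a* is plotted against *Mki67*, *Runx1* and *Gja5*, both in log2(CPM + 1), with 1 point per cell, blue for replicate 1 and orange for replicate 2, and dashed lines at the median of each library where cells were divided. The few points at the top carry most counts: the 2 highest cells of replicate 2, at 1968 and 1494 CPM, are left of the orange line in all panels.

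*Ccnd1* had 92.2 and 94.1 CPM in *Gja5*-low and *Gja5*-high cells of replicate 1, and 270 and 78.0 CPM in replicate 2. The libraries differed, and the log2 fold change of -0.90 (SE 0.46) had an adjusted p of 0.666 in edgeR. *Ccnd2* was at 320 and 404 CPM in replicate 1 and 255 and 195 CPM in replicate 2. *Cdk4* had 465 and 377 CPM in replicate 1 and 428 and 547 CPM in replicate 2. Their log2 fold changes were -0.04 (SE 0.29) and 0.01 (SE 0.25). *Cdkn1c* had 150 and 181 CPM in replicate 1 and 200.3 and 207 CPM in replicate 2, a log2 fold change of 0.15 (SE 0.35). The 8 genes tested had 4 positive and 4 negative values, with a median of -0.01 beside -0.003 for all genes. Of 8 arterial genes tested 6 rose, led by *Gja4* (3.19), *Igfbp3*, *Nrp1* (1.75) and *Efnb2* (2.18), as did the endothelial marker *Cdh5* (1.12) and *Col1a1* (2.81). Of the 26 other G1/S genes 0 were called (median 0.16, 2 with an unadjusted p under 0.05), and of 14 p53 targets 0 (median 0.03, 2 with such a p). Among all genes tested by *Gja5*, 7.7% had such a p.

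**Figure D5:**
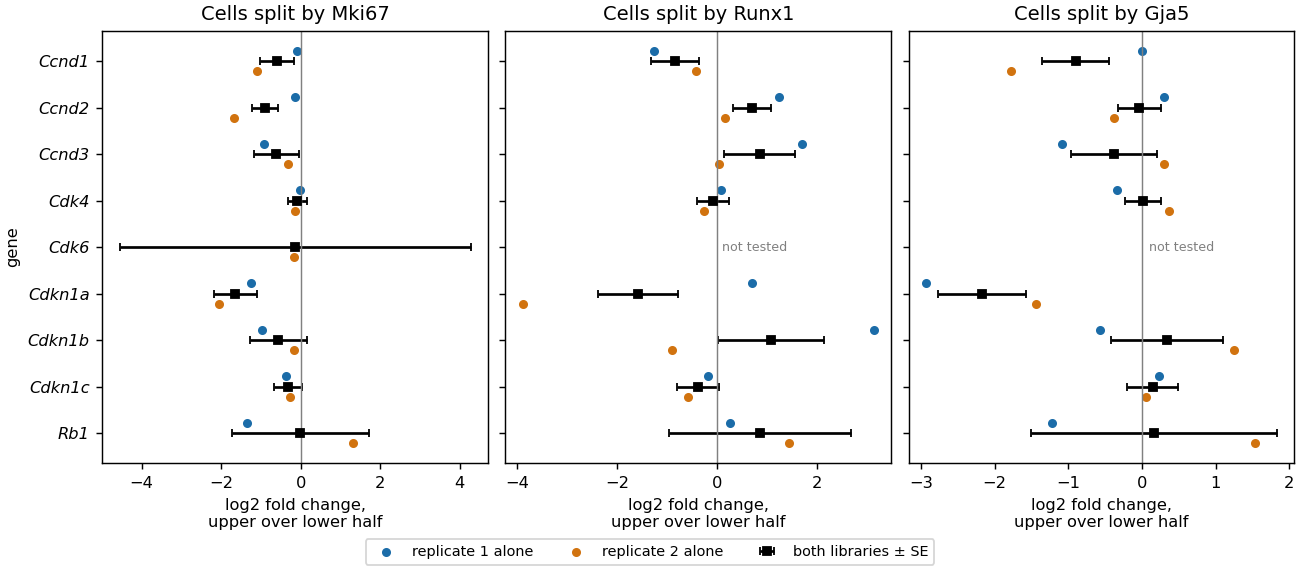
Log2 fold changes of high over low cells are given on the x axes for the 9 genes (y axis) when cells were divided by *Mki67*, *Runx1* and *Gja5*. Black squares are the fits of both libraries with bars of 1 SE, and blue and orange points are replicates 1 and 2 alone. The black squares of *Cdkn1a* lie at -1.65, -1.58 and -2.17, and in the *Runx1* panel its points stand on both sides of 0.

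*Cdkn1a* was also set beside p53 targets cell by cell. Of 14 targets with counts in both libraries, 6 (42.9%) had a positive rho with it in both. Of the 3660 genes that met the rule on the share of cells with a count, 32.8% did. Medians were 0.12 and 0.12 for the targets and 0.06 and 0.02 for these genes. The targets did not have to meet that rule. Of the 6, *Zmat3* (4 and 15 cells with a count), *Trp53inp1* (11 and 12), *Aen* (8 and 14) and *Eda2r* (4 and 4) fell short of it. *Ccng1* and *Bax* met it. The sets are thus unlike, and these values do not show an excess for p53 targets. *Ccng1*, which encodes cyclin G1, had 0.25 and 0.41, and *Aen*, an exonuclease gene, 0.29 and 0.32. *Mdm2*, which encodes the ligase that degrades p53, had 0.12 and -0.13, and *Plk2* -0.40 and 0.13. The last 4 genes were picked after their values had been seen.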

How the data were processed

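Single-cell transcriptomes of 87 yolk sac PK44 cells were deposited by the authors as 2 tables of counts, 1 per library. The authors assigned reads to cells by barcode, aligned them to mm10 (HISAT2 2.1.0), counted unique matches per gene (HTSeq) and collapsed reads that shared a UMI. A deposited count is thus meant to be 1 transcript of a gene in a cell, without normalization, but counts reached 956593 in a cell and whether each is 1 transcript is not settled. The methods state that cells with few genes or transcripts, or with too many raw reads or genes, had been removed, and no doublet caller was run here. The median non-zero count was 12 and 23.9% of non-zero counts were 1, which does not show whether any duplicates were left. The cell barcode tables hold no measurement and were not used. The number of other per-sample columns left unused was 0. Strand of counting is not given in the sources used here. Intervals and limits for 0 counts (3 counts, or 3 cells) cover counting error only.

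CPM were computed from the counts with all cells kept. For matched depth each cell was thinned to 10000 counts, which left out 0 cells. Cells were divided within each library at the median of *Mki67*, *Runx1* or *Gja5*, counts were summed, and edgeR 4.0.16 (R 4.3.3) tested the 4 sums by its quasi-likelihood test after filterByExpr and TMM scaling, with p adjusted after Benjamini and Hochberg and called under 0.05. The gene that divided the cells is not a result. The high and the low sum with 1 replicate number are cells of 1 library and are therefore pairs, and the library was a block. Single library values used the dispersion of all 4 sums and have no test. Alternatives were a fit without the block, DESeq2 1.42.0, RLE size factors, no filter on low counts, thinned cells, the 14 highest against the 14 lowest cells of each library, cells without the 3 rich in mesenchyme markers, division by a list score, division within the high and low cells of another gene (8 sums), and each library left out. Correlations and shares are descriptions.

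The fit was tested on simulated counts drawn from the means, library sizes and trended dispersions of the *Mki67* sums, with 200 genes changed. All of these were drawn from genes above the median level, whose median dispersion was 0.223. The common dispersion of the *Mki67* fit was 0.588. At log2 changes of 1, 2, 4 and 6 it recovered 0%, 31%, 88% and 100% among 10296, 10288, 10309 and 10283 genes, with 0, 5, 12 and 13 false calls. Without the block it recovered 0%, 0%, 62.5% and 87%. Changes of the size seen for most of the 9 genes would therefore be missed. The rates do not carry over to genes with few counts, such as *Cdk6* and *Rb1*, or with counts in few cells, such as *Cdkn1a*.

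The 9 genes, the gene lists and the alternatives were chosen with earlier results of these data known. Named were the 9 genes, the 3 dividing genes, at most 4 called genes of a list and comparison, and the 2 genes most alike to a member with a count in at least 50% of the cells of each library. Gene positions are from GENCODE M21 (GRCm38). Python 3.11.15 was used with scipy 1.17.1, numpy 2.4.6, pandas 2.3.3 and, for figures, matplotlib 3.10.9.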

Additional observations from a re-analysis of the deposited data

How the results depend on the processing

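With 2 libraries, log2 changes of 1 were below what the test recovers, *Cdk6* and *Rb1* had few counts, and values of *Cdkn1a* rested on few cells. The cause was not tested for any change below. "Extremes" are the 14 cells with most of a gene in each library against the 14 with least. Genes called were 5 for *Mki67*, 166 for *Runx1* and 94 for *Gja5*. Without the replicate block they were 0, 1 and 0. For *Mki67* the count was 24 with DESeq2 (14 higher and 10 lower, against 4 and 1), 19 with RLE size factors, 27 without a filter, 37 in thinned cells, 25 by extremes, 1 without the cells rich in mesenchyme markers and 51 by the G2M score. For *Runx1* it was 307 with DESeq2, 4 in thinned cells and 106 within *Mki67* groups. For *Gja5* it was 172 with DESeq2, 160 without a filter, 41 in thinned cells, 166 by extremes, 145 by the arterial score and 57 within *Mki67* groups. Members called stayed at 0 in 23 of 27 alternatives and were 1 by extremes (*Mki67* and *Runx1*), within *Mki67* groups (*Runx1*) and without a filter (*Gja5*), which was *Cdkn1a* each time (-3.63, -3.25, -2.95 and -2.18, adjusted p 0.0354, 0.0359, 0.0263 and 0.0237 in edgeR).

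The sign turned for these log2 fold changes, none of which was called. In the *Mki67* comparison *Ccnd3* was 0.13 in thinned cells, 1.89 by extremes, 0.53 by the G2M score and 0.10 within *Runx1* groups. *Cdk4* was 0.15 in thinned cells and 0.11 within *Runx1* groups, and *Cdk6* was 0.49 there. *Cdkn1b* was 0.13 in thinned cells, 0.019 by extremes, 0.44 by score and 0.27 within *Runx1* groups. *Rb1* was 0.14 without the replicate block, 0.15 by extremes, 0.11 by score and 0.12 within *Runx1* groups. In the *Runx1* comparison *Cdk4* was 0.24 and *Cdkn1c* 0.27 in thinned cells, *Cdkn1c* 0.11 within *Mki67* groups and *Cdkn1b* -0.60 by the hematopoietic score. In the *Gja5* comparison *Ccnd2* was 0.044 without the replicate block, 0.93 in thinned cells, 0.51 by extremes, 0.015 without the mesenchyme-rich cells and 0.10 within *Mki67* groups. By extremes *Ccnd3* was 0.40, *Cdkn1b* -0.51, *Cdkn1c* -0.36 and *Rb1* -1.04, and by the arterial score *Ccnd1* was 0.076, *Cdkn1a* 0.27, *Cdkn1c* -0.13 and *Rb1* -1.15.

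With 1 library left out the sign turned for *Rb1* by *Mki67* (-1.35 to 1.32), for *Cdk4* (-0.25 to 0.080), *Cdkn1a* (-3.88 to 0.71) and *Cdkn1b* (-0.91 to 3.14) by *Runx1*, and for *Ccnd2* (-0.38 to 0.30), *Ccnd3* (-1.08 to 0.30), *Cdk4* (-0.34 to 0.37), *Cdkn1b* (-0.57 to 1.25) and *Rb1* (-1.23 to 1.53) by *Gja5*.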
